A study of Homo sapiens with 4 samples.

Results

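MyLa, a cell line of mycosis fungoides, the commonest cutaneous T cell lymphoma, was kept for 40 hours in medium with 0.1% serum, either alone or with IL-32γ added at 5 ng/ml. The comparison described here is between these 2 arrays, of the 4 in the series, each gene's difference being the log2 value with IL-32γ minus the log2 value without it. The other 2 arrays hold HH, another cutaneous T cell lymphoma line, under the same 2 conditions, and are given beside MyLa where a reader needs a second line. Every condition shared the low serum and the 40 hours, both lines are long-passaged tumour cells rather than patient skin, and 1 array stood for each condition. With 1 array a side no difference can be checked against replicates or tested, and each cannot be told apart from a difference between 2 cultures or 2 RNA preparations.

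IL-32γ is the longest isoform of interleukin-32, an inflammatory protein made by T cells, natural killer cells and epithelia. In myeloid cells it is known to raise TNF, IL-6 and chemokines through NF-κB and p38 MAP kinase, and binding to proteinase 3 and to integrins has been proposed, but no dedicated receptor is generally agreed. The series is titled for the expression of IL-32 itself in mycosis fungoides, and these arrays ask what the added protein does to cell lines.

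MyLa made much IL32 transcript of its own: the gene read 13.45 without and 13.76 with added IL-32γ. Of 15 T cell markers with a named probe set, 7 lay at 5 or more, the level taken here as the floor of measurement: CD2, CD3D, CD3G, CD247, LAT, BCL11B and GATA3. CD3E, CD4, CD5, CD6, CD7, CD28, LCK and TRAT1 were below it on both arrays, so the T cell label holds only in part by these markers. Of 8 lymphoma-associated markers with a named probe set, TNFRSF8 (CD30), TOX, TWIST1, IL2RA and GPR15 were measured, while PLS3, CCR4 and CD52 were below 5 on both arrays. All 9 endothelial and all 6 melanocyte markers were below 5 on both arrays, as were CD14, LYZ and CD163 of macrophages, CD79A and PAX5 of B cells and KRT5 and KRT14 of keratinocytes. The exceptions were BLK, a B cell kinase, at 4.39 and 6.57, ITGAM among 9 macrophage markers, PRF1 among 8 of natural killer cells, KRT10 and SFN among 8 of keratinocytes, and COL1A1, COL3A1, POSTN and TAGLN among 10 of fibroblasts.

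The control probe sets that sit at different places along the same transcript differed between the 2 MyLa arrays. The results below are to be read beside them. The 3' ACTB probe set, for beta-actin, read 15.14 without and 15.07 with IL-32γ, the middle one 12.91 and 13.63, and the 5' one 10.12 and 11.81. For GAPDH the 5' probe set read 14.06 and 14.75 against 14.997 and 15.04 at the 3' end. Thus the 3' ends differed by -0.08 for ACTB and 0.04 for GAPDH, while both 5' ends read higher with IL-32γ, by 1.69 and 0.68. The MyLa control array stood apart in the gap between the 3' and the 5' ACTB probe sets, which was 5.02 there and 3.25 with IL-32γ, and in HH 2.59 without and 1.66 with it. The 18 spike-in controls, added after extraction, differed by -0.16 to 0.04 between the MyLa arrays. How far the quality or length of the RNA enters the differences of single genes was not tested.

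**Figure D1:**
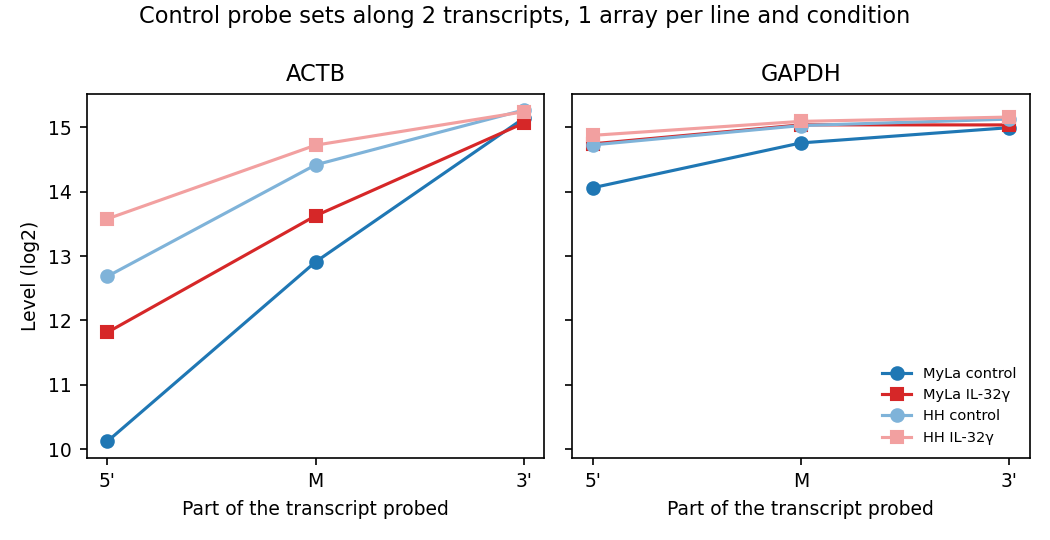
Level (log2, vertical axis) of the control probe sets at the 5' end, the middle and the 3' end of ACTB and GAPDH, with 1 point for each of the 4 arrays. The 3' ends lie close together, while the 5' ACTB probe set runs from 10.12 on the MyLa control array to 13.58 on the HH IL-32γ array.

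Most genes differed little between the MyLa arrays. Of 10497 genes that reached 5 on either MyLa array, each stood for by the probe set brightest over the series, 8878 (84.6%) lay within 1.5-fold, 816 (7.77%) were higher with IL-32γ by 1.5-fold or more and 803 (7.65%) were lower. The median difference was -0.07. Differences were commoner among dim genes: 16.3% of genes with a mean level from 5 to 7 were higher and 20.8% lower, against 0.97% and 0.07% of genes from 13 to 17. With the differences centred on their median the counts became 973 higher and 620 lower, so the balance of the directions moved with that small offset. At a threshold of 2-fold 280 genes were higher and 163 lower, and at 4-fold 20 and 2.

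Several probe sets of the same gene are read on the same RNA, and their agreement bears on the probes, not on the cultures. Where they lie along the transcript was not examined, so 2 of them may read the same stretch. Of the 4832 genes with 2 or more measured probe sets (those ending in _x_at, whose probes match several genes, left out), the 2 brightest differed from each other by a median of 0.29 in their IL-32γ difference. Of 260 genes whose brightest probe set was higher by 1.5-fold or more, the second was too in 91 (35.0%) and passed 1.5-fold the opposite way in 10. Of 261 genes lower by the brightest, the second followed in 74 (28.4%) and opposed it in 18. Over all 4832 genes the Pearson correlation between the 2 differences was 0.25. The share of second probe sets past 1.5-fold over all genes was not counted. Restricting both probe sets to a mean of 9 or more gave 30 of 91 (32.97%) and 14 of 59 (23.7%). Over these 2674 genes the median gap was 0.23 and the correlation 0.26. Fewer bright genes passed 1.5-fold at all, so these shares cannot compare the agreement of bright and dim probe sets. Only 255 of the 816 higher genes and 252 of the 803 lower genes had 2 or more such probe sets (31.2% and 31.4%, against 46.0% of all measured genes). Those read by _x_at probe sets alone were 41 of the higher, 11 of the lower and 302 of all 10497.

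**Figure D2:**
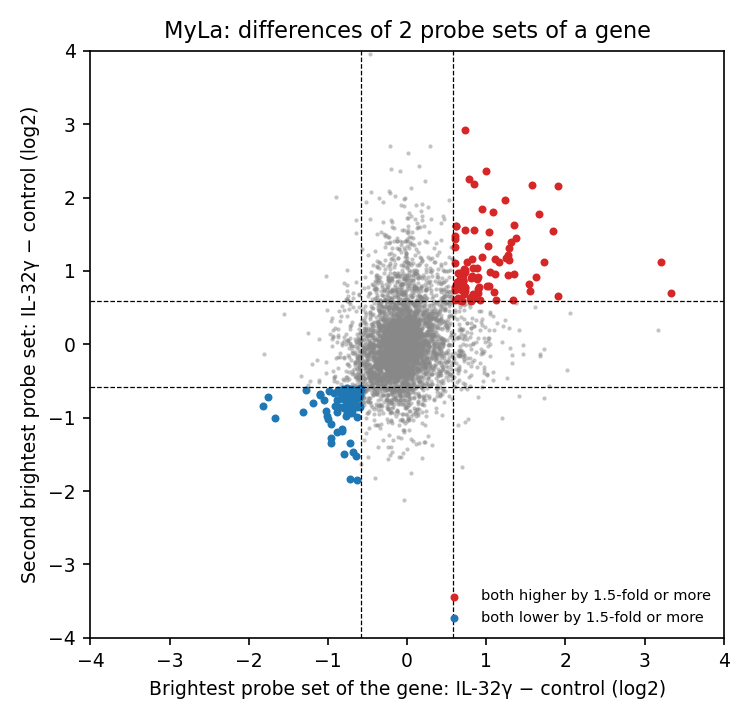
Difference with IL-32γ (log2) of the brightest probe set of a gene in MyLa (horizontal axis) against that of its second brightest (vertical axis), 1 point for each of 4832 genes, with dashed lines at 1.5-fold. The red points are the 91 genes with both higher and the blue points the 74 with both lower; most points past a line on 1 axis are not past it on the other.

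Every measured probe set passed 1.5-fold the same way in 79 higher genes (1.63% of the 4832) and 61 lower genes (1.26%). Of these, 67 and 57 rested on 2 probe sets and the rest on 3. Of the 4832 genes, 2845 had 2 measured probe sets, 1175 had 3 and 812 had 4 or more. None of the 812 passed on every probe set, so the rule favours genes with few readings. After centring on the median there were 107 and 38. Where each probe set had to read 7 or more on both arrays, there were 45 and 39, of 3810 genes. The difference smallest in size per gene had a median of 0.73 over the 79 and -0.70 over the 61. Beside these, the 5' control probe sets stood at 1.69 for ACTB and 0.68 for GAPDH.

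Among the higher genes of this kind, BBLN, a small coiled-coil protein, was first by the smaller of its differences: its probe sets read 8.48 and 6.70 without and 10.39 and 8.85 with IL-32γ, differences of 1.91 and 2.15. FAAP20, a subunit of the Fanconi anaemia core complex of DNA repair, read 7.54 and 6.78 without and 9.21 and 8.56 with IL-32γ. POLR2E, a subunit shared by the nuclear RNA polymerases, read 8.55 and 7.02 without and 10.13 and 9.19 with. For all 3 the MyLa control array was the low one: on the HH control array the same probe sets read 10.89 and 9.17 (BBLN), 8.76 and 8.02 (FAAP20) and 11.29 and 10.09 (POLR2E).

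Genes that regulate cell death were among them. BAD, a BH3-only protein that promotes apoptosis, read 7.25 and 5.81 without and 8.52 and 7.02 with IL-32γ. FKBP8, a mitochondrial immunophilin that holds BCL2 at mitochondria, had 3 probe sets at 11.61, 9.45 and 5.54 without and 12.92, 10.85 and 9.84 with. Its 2 brighter probe sets differed by 1.31 and 1.40 and the dim one by 4.30, so the size depended on the probe set while the direction did not. BCL2L1, which encodes the survival protein BCL-XL, had differences from 0.73 to 3.51 over 3 probe sets, and SIVA1, a pro-apoptotic partner of CD27, 0.82 and 1.54. The TRAIL receptor TNFRSF10A had 0.73 and 1.56, and TNFRSF25 (DR3), a death-domain receptor of T cells, 0.65 and 1.91.

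Among immune genes on this list of 79, CCL5, a chemokine that recruits T cells, had differences from 0.70 to 1.55 over 3 probe sets, and ZAP70, the kinase that reads out the T cell receptor, 0.62 and 1.62. ISG20, an interferon-induced exonuclease, stood at 0.83 and 0.93, SIGIRR, a brake on IL-1 receptor signalling, at 0.89 and 0.92, and FLT3LG, the growth factor of dendritic cells, at 0.85 and 1.56. ORMDL3, a regulator of sphingolipid synthesis, read 10.62 and 10.50 without and 12.36 and 11.63 with IL-32γ, close to its 12.13 and 11.66 on the HH control array. PTP4A3, a phosphatase linked to invasion, read 7.60 and 7.35 without and 10.80 and 8.47 with, differences of 3.21 and 1.12.

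Others served splicing, transcription and trafficking. SNRNP70, the core protein of the U1 spliceosomal particle, read 11.15 and 5.22 without and 12.24 and 7.01 with IL-32γ. YIF1B, of the early secretory pathway, differed by 1.03 and 1.53, DLGAP4 by 0.95 to 1.94 over 3 probe sets, and SFI1, a centrin-binding centrosome protein, by 1.03 and by at least 1.34, as its dimmer probe set was below 5 on the control array. ZNF703, a transcriptional corepressor, read 11.01 and 10.46 without and 12.30 and 11.77 with, and here MyLa lay above the 8.33 and 7.58 of the HH control array under both conditions. Of the other genes highest by the rule, CC2D1A, a transcriptional repressor, read 6.86 and 5.94 without and 8.70 and 7.48 with IL-32γ, and HINT3, a nucleotide hydrolase, 9.73 and 6.36 without and 10.72 and 8.72 with. The smaller differences were 1.23 for C1orf56, 1.17 for REX1BD, 1.12 for LRRC14, 1.11 for STOML1, at least 0.96 for NUDT14, whose dimmer probe set was below 5 without IL-32γ, and 0.95 for R3HDM4. RAB11B, a small GTPase of recycling endosomes, stood at 3.33 on its representative probe set and 0.70 on another.

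**Figure D3:**
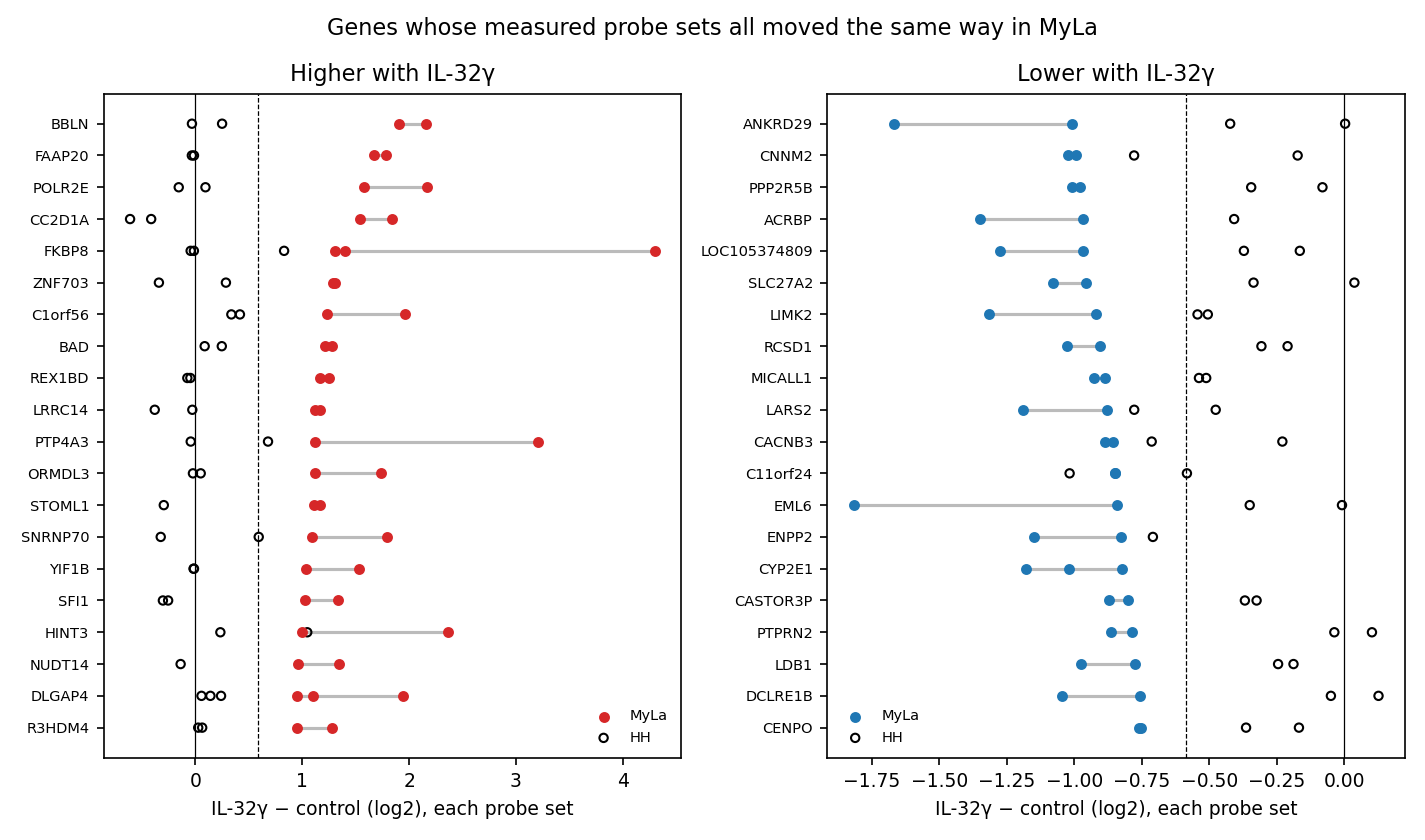
Difference with IL-32γ (log2) of each measured probe set for the 20 genes highest and the 20 lowest by the smallest difference among their probe sets, in MyLa (filled) and, where the probe set was measured, in HH (open), with dashed lines at 1.5-fold. BBLN, POLR2E and FAAP20 lie above 1.5 in MyLa on every probe set while their HH points lie near 0; the lower genes lie mostly left of 0 in HH too.

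The lower genes with agreeing probe sets were led by ANKRD29, whose probe sets read 6.67 and 6.12 without IL-32γ and 4.79 and 5.11 with it. CNNM2, of magnesium transport, read 8.14 and 7.61 without and 7.15 and 6.59 with, and PPP2R5B, a regulatory subunit of phosphatase 2A, 8.03 and 6.80 without and 7.02 and 5.82 with. The smaller differences were -0.97 for ACRBP and LOC105374809, -0.86 for CACNB3, -0.85 for C11orf24, -0.84 for EML6, -0.80 for CASTOR3P and -0.79 for PTPRN2. For EML6 that value is a bound, as the probe set was below 5 with IL-32γ.

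Genes of actin and membrane traffic were among them. LIMK2, a kinase that stabilises actin filaments through cofilin, read 10.11 and 9.56 without and 8.80 and 8.64 with IL-32γ. MICALL1, of recycling endosomes, read 11.79 and 11.73 without and 10.90 and 10.80 with, and RCSD1, which binds the actin-capping protein CapZ, 9.497 and 7.64 without and 8.47 and 6.73 with. These 3 genes of actin and membrane traffic had both probe sets lower by 0.89 to 1.32.

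Metabolic genes included SLC27A2, a fatty acid transporter and acyl-CoA synthetase, at 9.40 and 9.26 without and 8.45 and 8.18 with IL-32γ. LARS2, which charges the mitochondrial leucine tRNA, was at 10.24 and 10.16 without and 9.05 and 9.28 with. CYP2E1, a cytochrome P450, had 3 probe sets at 9.79, 7.62 and 7.48 without and 8.97, 6.44 and 6.46 with. ENPP2 (autotaxin), which makes lysophosphatidic acid, was lower by 0.83 on the brighter probe set and by at least 1.15 on the other. CBS, of the path from homocysteine to cysteine, differed by -0.69 and -0.78.

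Cell division and transcription genes were also among the 61. ESPL1 (separase), which cuts cohesin at anaphase, differed by -0.79 and -0.73, CENPF, of the kinetochore, by -0.60 and -0.69, and CENPO, another kinetochore protein, by -0.75 and -0.76. E2F4, a repressor of cell cycle genes, differed by -1.75 and -0.72, and POLR3B, a subunit of RNA polymerase III, by -0.72 to -1.84. LDB1, the adaptor that joins LIM and GATA factors at enhancers, read 9.39 and 9.28 without and 8.61 and 8.31 with IL-32γ. DCLRE1B (Apollo), a nuclease of telomeres, was lower by 0.76 and 1.05.

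The same genes were then read in HH. Of the 61 lower genes, 56 were measured in HH, where 53 had a difference below 0, with a median of -0.35; 7 were lower by 1.5-fold or more and 0 higher. Of the 79 higher genes, 77 were measured in HH, where 33 lay above 0, with a median of -0.06; 2 passed 1.5-fold upward and 3 downward. Over all 4609 genes with several MyLa probe sets that were measured in HH, 2874 lay below 0, 110 were lower and 31 higher by 1.5-fold or more, and the median was -0.04; over all HH genes 4.46% were lower and 1.14% higher. The lines have their own control arrays, so no control array is shared, but each line has 1 array a condition and the difference between lines was not tested.

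Among genes read by 1 probe set at 7 or more on both MyLa arrays, the highest were MGRN1, a ubiquitin ligase (9.15 without and 12.08 with IL-32γ), UQCRC1, of respiratory complex III (7.16 and 9.57), the tetraspanin TSPAN9 (8.30 and 10.27), AP2S1, of the clathrin adaptor AP-2 (8.72 and 10.61), PEMT, which makes phosphatidylcholine (7.74 and 9.56), CIMIP2A (7.22 and 9.03), BSG (CD147), the partner of lactate transporters (9.997 and 11.78), and TRAPPC5, of a vesicle tether (8.73 and 10.50). The lowest were CYFIP1, of the WAVE complex that drives actin branching (9.06 and 7.47), the water and glycerol channel AQP3 (9.23 and 7.69), PRXL2C (9.498 and 7.997), MSRA, which repairs oxidised methionine (9.27 and 7.95), SCG5 (8.94 and 7.68), FANCG, of the Fanconi anaemia core complex (9.49 and 8.23), PRKCD, protein kinase C delta (9.85 and 8.64), and SPINDOC (8.92 and 7.74). For 15 of these 16 genes no other probe set reached 5 on a MyLa array, and those of TSPAN9, CIMIP2A, AQP3 and MSRA were below 5 on both. AP2S1 alone had further readings, on _x_at probe sets, which read 9.47 and 7.73 without and 10.998 and 9.08 with IL-32γ. Of the genes below 5 on 1 array, AP5B1 and STARD10, higher by at least 2.80 and 2.51 on the log2 scale, were both represented by _x_at probe sets, and ESCO2, a cohesin acetyltransferase, was higher by at least 2.19. On the lower side MROH8, ANKRD29 and AGPAT4-IT1 read 6.76, 6.67 and 6.59 without IL-32γ and below 5 with it.

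Metallothioneins, small cysteine-rich proteins that bind zinc and copper and are induced by metals, glucocorticoids and oxidants, had the median furthest from 0 of the 33 lists. All 6 measured members of 11 listed were higher by 1.5-fold or more, with a median of 0.94 against -0.07 over all genes. MT2A read 10.60 without and 11.73 with IL-32γ, MT1H 9.25 and 10.15, MT1X 8.87 and 9.66, MT1G 8.62 and 9.59 and MT1E 6.49 and 7.195, and MT1F went from 4.50 to 6.002, a bound of 1.00. Every 1 of these readings came from an _x_at probe set, whose probes match several metallothionein genes. The probe sets not of that kind, for MT1G, MT1M, MT3 and MT4, stayed below 5 on both MyLa arrays, as did a second _x_at probe set of MT1E (2.53 and 4.99) and of MT1F (3.57 and 3.80), so which genes of the cluster carry the signal is not settled by these values. In HH the same 6 genes read from 10.72 to 13.64 without IL-32γ and differed by 0.06 to 0.32.

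The promoters of 3 of these genes, which metal-responsive transcription factor 1 controls through short metal response elements, are shown because all measured members read higher. They run from 250 bases before to 50 after the start, 5' to 3', on the plus strand of chromosome 16 in GRCh38.p14 from RefSeq, with each match to the core TGCACNC or TGCGCNC on either strand in capitals.
MT2A, chr16:56608334-56608633: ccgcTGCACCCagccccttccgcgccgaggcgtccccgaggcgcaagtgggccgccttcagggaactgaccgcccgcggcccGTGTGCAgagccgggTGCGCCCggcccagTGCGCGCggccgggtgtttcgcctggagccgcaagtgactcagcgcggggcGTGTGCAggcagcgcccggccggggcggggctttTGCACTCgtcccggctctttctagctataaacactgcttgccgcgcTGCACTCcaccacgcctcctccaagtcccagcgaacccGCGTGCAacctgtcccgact
MT1H, chr16:56669564-56669863: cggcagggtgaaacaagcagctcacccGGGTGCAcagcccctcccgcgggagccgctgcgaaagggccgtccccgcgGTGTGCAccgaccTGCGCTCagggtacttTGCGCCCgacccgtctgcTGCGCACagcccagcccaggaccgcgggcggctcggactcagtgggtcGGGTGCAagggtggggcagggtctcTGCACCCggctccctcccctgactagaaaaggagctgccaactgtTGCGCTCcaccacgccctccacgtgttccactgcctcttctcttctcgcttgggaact
MT1X, chr16:56682220-56682519: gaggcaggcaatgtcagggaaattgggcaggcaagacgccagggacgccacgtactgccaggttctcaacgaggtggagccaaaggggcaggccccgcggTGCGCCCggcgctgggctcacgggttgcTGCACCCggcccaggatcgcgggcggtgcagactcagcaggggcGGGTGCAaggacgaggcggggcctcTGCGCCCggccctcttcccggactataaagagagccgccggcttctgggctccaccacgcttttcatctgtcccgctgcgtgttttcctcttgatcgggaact

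The core occurred 8 times in the MT2A and MT1H windows and 4 times in that of MT1X, and 3 times in those of MT1B and of MT4, which was below 5 on both MyLa arrays. Of all 27305 promoters in the table, 8014 (29.4%) held it at least once and 162 (0.59%) 4 times or more. Of the genes higher in MyLa, 265 of 657 with a promoter in the table (40.3%) held it at least once, against 270 of 641 lower genes (42.1%) and 3398 of 8673 measured genes (39.2%). It occurred 4 times or more in 10 of the higher (1.52%), 3 of the lower (0.47%) and 77 of the measured genes (0.89%). MT2A, MT1H and MT1X are among those 10, so the shares say nothing beyond these few promoters. A match describes the letters only. The zinc transporters and MTF1, listed separately, had 1 of 15 measured members past 1.5-fold, the importer SLC39A3, which read 1.68 higher on 1 probe set and -0.13 on another, and a median of 0.03.

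Counts in the lists that follow are to be read against the 7.77% of all genes higher and 7.65% lower. Of 35 listed cytokine and chemokine genes 15 were measured, 4 higher (TGFB1, LTB, CCL5 and IL13) and 1 lower (CSF1), with a median of 0.30. TGFB1, on chromosome 19, read 5.94 without and 8.40 with IL-32γ on its representative probe set, and 8.78 on the HH control array. IL13, the Th2 cytokine, read 10.02 without and 10.78 with IL-32γ, and LTB, which forms lymphotoxin heterotrimers, 7.92 and 9.49. CCL5 alone had more than 1 probe set past 1.5-fold in agreement. IL2, IL4, IL6, IL10, IL17A, IL21, IL22, IL26 and IFNG were below 5 on both arrays. Of 16 measured genes of the TNF and TNF receptor families 3 were higher, TNFRSF25, CD70, the ligand of CD27 (9.66 and 10.88), and TNFRSF10A, and 1 was lower, the B cell survival factor TNFSF13B (8.37 and 7.45, with another probe set at -0.46), with a median of 0.23. Both lists lay above the -0.07 of all genes.

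The genes through which IL-32 is proposed to act had no common direction. Of 8 measured members of their list, which also holds IL32 itself (0.30), 0 were higher and 1 was lower by 1.5-fold, PRKCD. PRKCE, another protein kinase C, stood at 0.57 on its representative probe set and from -0.16 to at least 1.87 over 3, the last below 5 on the control array, STAT3 at 0.04 and between -0.37 and 1.39, and the focal adhesion kinase PTK2 at 0.02 and between -1.69 and 0.48. The integrin subunit ITGAV stood at -0.30, the vitamin D receptor VDR at -0.20 and the adhesion adaptor PXN at 0.05. PRTN3, ITGB3 and CEBPA were below 5. For PRKCE, STAT3 and PTK2 the probe sets differed in sign, so no direction can be given.

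Signalling lists downstream of cytokines stayed near the median of all genes. Of 24 JAK-STAT genes, 2 were higher, the kinase JAK3 (13.18 and 13.78) and PIM1 (9.995 and 10.81), and 2 lower, STAT4 (7.88 and 7.12) and JAK2, whose other probe set stood at 0.31; the median was 0.01. Of 19 NF-κB subunits and inhibitors 0 were higher and 1 was lower, TRAF3 (11.24 and 10.58), with a median of -0.13. Of 21 immediate early and MAP kinase feedback genes 2 were higher, SPRY1 (7.50 and 8.12) and DUSP10, whose other probe set stood at -0.16, and the median was 0.05. FOS, FOSB, FOSL1, EGR3, NR4A1 and DUSP1 were below 5 on both arrays at 40 hours.

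T cell genes gave single members rather than a pattern. Of 18 genes of the T cell receptor and its signalling, ZAP70 was higher and PLCG1 lower (11.74 and 11.10), with a median of -0.10. Of 19 T cell transcription factors BATF was higher (9.93 and 11.11) and NFATC1 lower (7.09 and 5.07), each on 1 probe set, with a median of 0.00. Of 24 cytokine receptors IL21R was higher at 0.64, with another of its probe sets at -0.83, and CCR10, a skin homing receptor, read 5.35 and 6.10. The 9 measured MHC class II genes held no member past 1.5-fold, and of 17 class I and loading genes 1 was lower, NLRC5, the transactivator of class I genes (9.22 and 8.06).

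Interferon-stimulated genes were split: of 22 measured, ISG15 (11.99 and 13.22), IFITM2 (11.62 and 12.66), IFITM3 (9.996 and 10.84) and ISG20 were higher and IFIT1 (6.54 and 5.78) was lower, with a median of 0.08. IFITM2 and IFITM3 were read by _x_at probe sets alone. MX1, OAS1, OAS3, IFI6, IFI27, IFI44L, USP18 and XAF1, also of the list, were below 5 on both arrays.

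Death genes read in both directions. Of 19 measured pro-apoptotic and pyroptosis genes 3 were higher, BAD, the initiator caspase CASP8 (9.22 and 9.98) and the gasdermin GSDMD (6.86 and 7.50), and 2 lower, GSDME (7.09 and 5.29) and CASP9, the caspase of the apoptosome (10.64 and 9.83), with a median of 0.02. Of 10 anti-apoptotic genes only BCL2L1 passed 1.5-fold, with a median of 0.13.

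The cell cycle lists had members past 1.5-fold in both directions. Of 35 G2/M and mitosis genes 6 were lower, among them KIF2C, a microtubule depolymerase (10.53 and 9.33, with another probe set at -0.27), CDC25C (7.77 and 6.91), ESPL1 and PRC1 (9.67 and 9.01), and 4 were higher, ESCO2 (at least 2.19), UBE2C (8.72 and 9.63), PLK1 (5.95 and 6.59) and AURKB. AURKB, at 0.61, had another probe set at -0.58. The median of -0.22 was the lowest of the 33 lists. Of 51 G1/S and replication genes 5 were lower, E2F4, POLD1, the catalytic subunit of DNA polymerase delta (7.202 and 6.01), MCM2 (11.92 and 11.07), CCND3 and CCNE1, and 4 higher, LIG1, the replicative ligase (9.30 and 10.61), the licensing factor CDT1, CDK2 (6.73 and 7.78) and CCNE2, with a median of -0.13. Across both lists every measured probe set passed 1.5-fold the same way in 3 genes, E2F4, ESPL1 and CENPF, all lower.

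**Figure D4:**
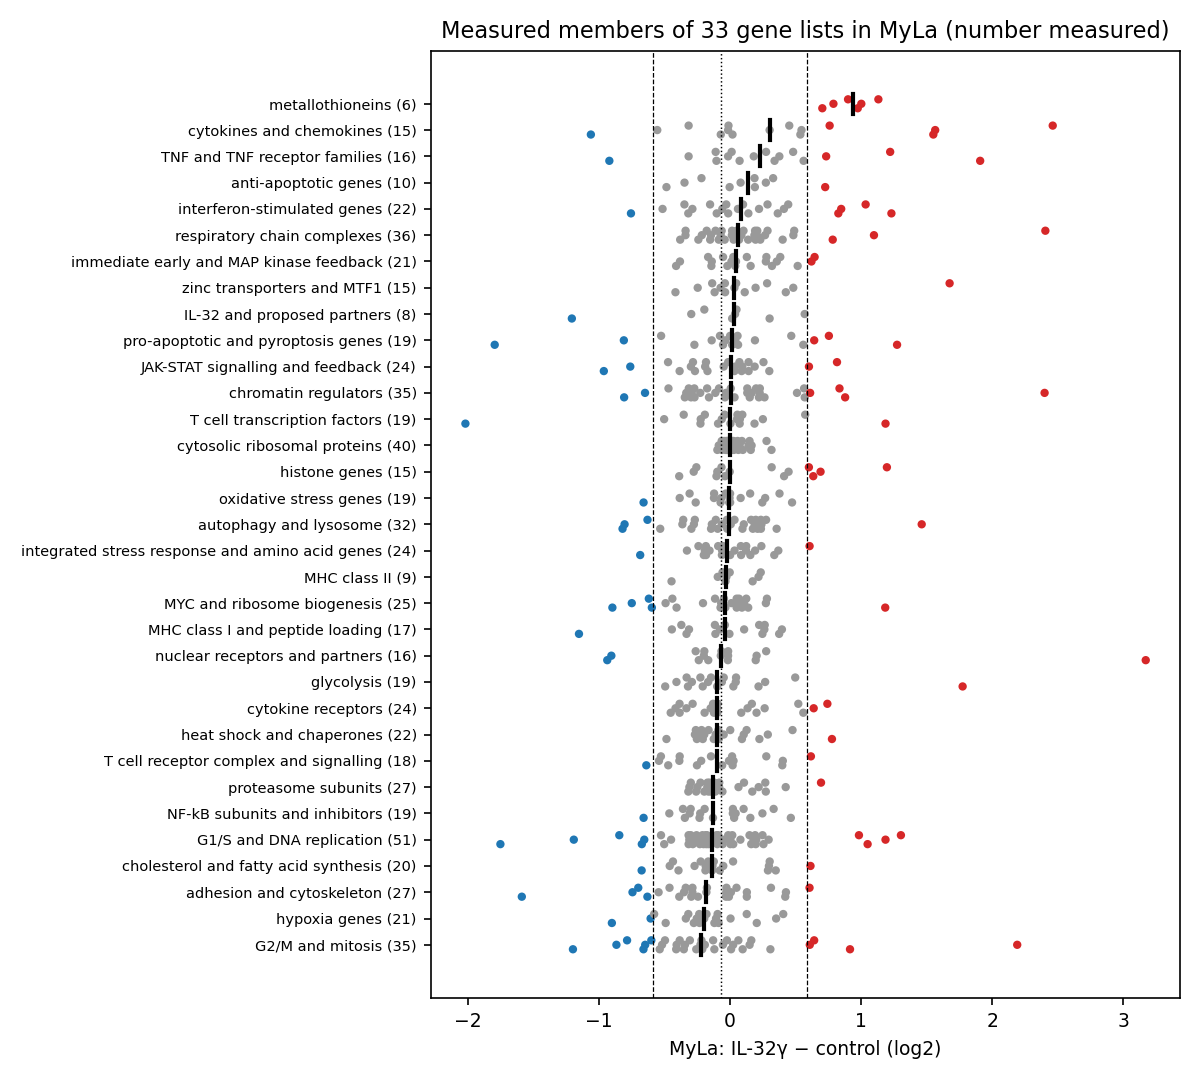
Difference with IL-32γ in MyLa (log2, horizontal axis) of each measured member of 33 gene lists, 1 point a gene, red where higher and blue where lower by 1.5-fold or more, with the list's median as a black bar and the median of all genes as a dotted line. The metallothioneins all lie above 0.70, while the cytosolic ribosomal proteins lie together around 0.

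Metabolic and stress lists held few members past 1.5-fold. The 40 measured cytosolic ribosomal proteins held no member past 1.5-fold, with a median of -0.00. Of 36 respiratory chain genes 3 were higher, UQCRC1, NDUFS7, of complex I (6.95 and 8.05), and ATP5F1D, of ATP synthase (10.46 and 11.25), and 0 lower, with a median of 0.06. PFKL, the liver-type phosphofructokinase (5.598 and 7.37), was the only 1 of 19 glycolysis genes past 1.5-fold, and the hypoxia list had NDRG1 (7.14 and 6.24) and P4HA2 lower of 21, the second with another probe set at 0.06, and a median of -0.20. In the stress response list PPP1R15A (GADD34), which ends translational arrest, was higher on both probe sets (0.61 and 0.74) and CBS lower on both. Of 27 proteasome genes only PSMB5 passed 1.5-fold (11.47 and 12.17), and of 22 heat shock genes only the regulator HSF1 (8.13 and 8.91).

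Of 27 adhesion and cytoskeleton genes 4 were lower, CYFIP1, the integrin ITGA4 (9.17 and 8.42), ICAM1 and ACTN1 (8.34 and 7.71), and ACTN4 was higher (10.36 and 10.97); ICAM1 ranged from -0.70 to at least 1.01 over 3 probe sets, and another of ITGA4 stood at -0.27. Of 35 chromatin regulators 4 were higher, BCORL1 (5.10 and 7.50), KMT2A, KDM6B and CHD4, and 2 lower, the histone deacetylases HDAC7 (8.88 and 8.07) and HDAC3 (11.75 and 11.10), with a median of 0.01. CHD4, at 0.61, ranged down to -0.11 over 3 probe sets. KMT2A, at 0.88, ranged from -0.57 to 1.43 over 9 probe sets, whereas KDM6B ranged from 0.57 to 0.84 over 3. Of 15 histone genes 4 were higher, H1-3 (7.15 and 8.34), H2AC8, H1-10 and H3-3A, and 0 lower, with a median of -0.00. Of 16 nuclear receptors and partners the retinoic acid receptor RARA was higher, at 3.17, with another probe set at 0.19, and NR1H3 (8.09 and 7.15) and NR2C1 were lower, NR2C1 by -0.91 to -0.21 over 4 probe sets. Of 20 sterol and fatty acid synthesis genes FASN was higher by at least 0.61 and SCAP lower (10.31 and 9.64), and of 19 oxidative stress genes SRXN1 was lower (9.72 and 9.06).

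Of 32 autophagy and lysosome genes 3 were lower, ATG2A, which moves lipid to the growing autophagosome (7.27 and 6.45), ATG9A (10.32 and 9.52) and ATG5, at -0.63 with other probe sets at 0.13 and -0.29, and 1 higher, ATG7, whose 4 probe sets ran from -0.97 to 1.46. Of 25 MYC and ribosome biogenesis genes 4 were lower, BYSL (9.67 and 8.77), the RNA polymerase I subunits POLR1A and POLR1B, and RRP9, and PES1 was higher (9.40 and 10.59). The other probe sets of POLR1A stood at -0.06 and -0.14 and those of POLR1B at 0.06 and 0.10. In all, 2 of the 33 lists had no member past 1.5-fold, and 21 had a median above that of all genes.

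The genes higher in MyLa were not spread evenly over the chromosomes. A chromosome was assigned to 8673 of the 10497 genes (82.6%) through the RefSeq promoter table of GRCh38.p14. On chromosome 19, 133 of 550 genes (24.2%) passed 1.5-fold upward and 32 (5.82%) downward, against 7.77% and 7.65% over all genes, and 6.46% higher over the other 21 chromosomes together. Chromosomes 22 (14.7%) and 16 (12.2%) followed among the 22 chromosomes compared, and the lowest share was 1.09%, on chromosome 13. Genes with no chromosome in that table were not analysed here. No measured gene was placed on chromosome 8, so that chromosome is absent from these shares. On the lower side the shares ran from 4.19% on chromosome 22 to 10.1% on chromosome 15.

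The share on chromosome 19 was the larger in each of 3 ranges of level. From 5 to 9 the share higher was 31.0% on chromosome 19 and 13.4% elsewhere, from 9 to 11 27.1% and 7.10%, and above 11 13.6% and 2.74%. Of 158 genes there with 2 or more measured probe sets 14 were higher on every 1 (8.86%, against 1.63% overall), POLR2E, CC2D1A, SNRNP70, YIF1B and R3HDM4 among them. The 73 genes with a ZNF symbol, mostly zinc finger repressors clustered on that chromosome, had 6 higher (8.22%) and 10 lower, while the other 477 had 127 higher (26.6%) and 22 lower. In HH 0.71% of chromosome 19 genes were higher, against 1.14% over all genes there. Neighbouring genes are not replicates, and this is a description of 2 arrays.

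**Figure D5:**
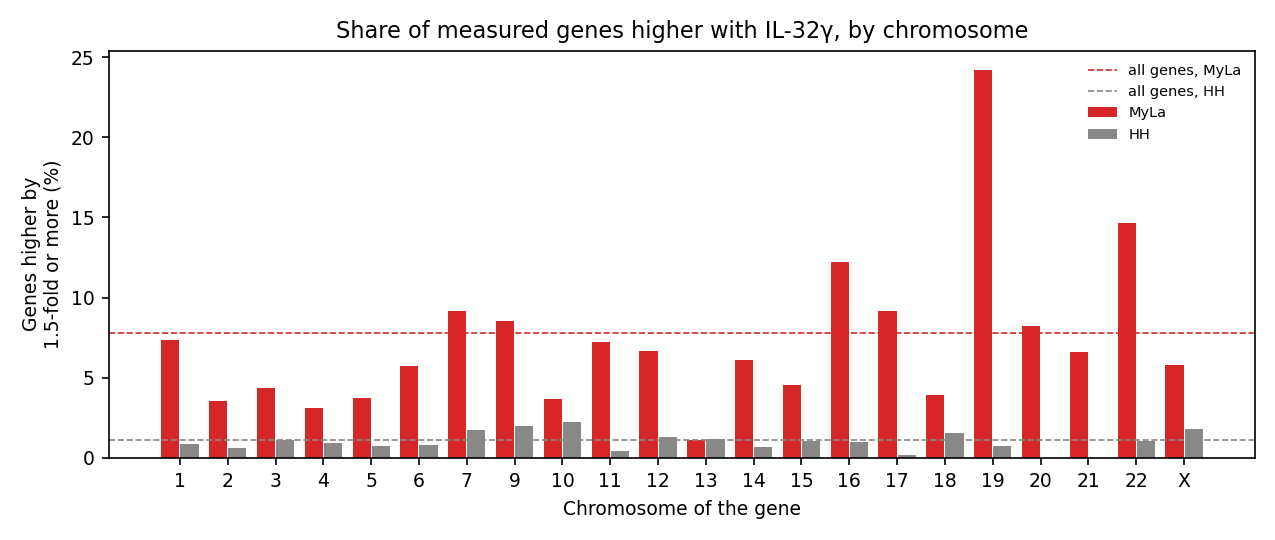
Share of measured genes higher with IL-32γ by 1.5-fold or more (percent, vertical axis) for each chromosome with genes assigned here, in MyLa (red) and HH (grey), with the share over all genes as dashed lines. Chromosome 19 reaches 24.2% in MyLa and 0.71% in HH.

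The median GC content of the 300 bases around the start was 66.0% for the higher genes, 64.7% for the lower, 65.3% for all measured genes and 65.0% for those on chromosome 19. The composition of the transcripts themselves was not used here.

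The order of the 4 arrays is given as a description only, since the genes were chosen by the same 2 MyLa arrays and that choice favours an extreme position of both. Of the 816 higher genes, the MyLa control array read lowest of the 4 in 507 (62.1%) and the MyLa IL-32γ array highest in 483 (59.2%). Over all 10497 measured genes these shares were 20.9% and 22.5%. The median higher gene lay 0.56 below the HH control array without IL-32γ and 0.37 above it with. Of the 803 lower genes, the MyLa control array read highest of the 4 in 536 (66.7%) and the MyLa IL-32γ array lowest in 339 (42.2%), against 34.9% and 26.3% of all measured genes. The median lower gene lay 0.71 above the HH control array without IL-32γ and -0.02 from it with.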

How the data were processed

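RNA was amplified once for labelling, per the labels' protocols. The deposited values are log2 expression per probe set, made by the authors with GCRMA, per the submitters' processing notes. The GCRMA version, and whether all 4 arrays entered 1 normalisation, is not given in the sources used here. The log2 scale was read from the values (2.13 to 16.0). Each MyLa array had 43.3% of 54675 probe sets at 5 or more. The number of arrays limits the precision.

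Symbols came from the array annotation, updated through Entrez identifiers with RefSeq's GRCh38.p14 table for 41043 of 41097 probe sets with 1 symbol; 1801 had several and 11777 none listed, and these were not named. Values below 5 were set to 5 and IL-32γ minus control was taken; a value below 5 on 1 array makes it a bound. A gene is stood for by its brightest probe set (mean of 4 arrays). Counting was tested on simulated data: of 200 changed genes among 10573, all 150 set past 1.5-fold were found.

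The comparison, the gene lists and the rules were chosen with earlier results of these data known. Genes were named by rule: the 20 highest and 20 lowest with agreeing probe sets, 8 each way with 1 probe set at 7 or more, 3 bounds each way, up to 4 members per list, and all metallothioneins and IL-32 partners. The text describes the genes of the rule by function, not by rank. Genes given beside these (such as SIVA1, SIGIRR, FLT3LG, RAB11B and POLR3B) were chosen after their values were seen. Quantile, loess and centred values were tried as alternatives, with floors of 4, 6 or none, other probe set rules and a 2-fold threshold. Python 3.11.15, numpy 2.4.6, pandas 2.3.3 and matplotlib 3.10.9 were used.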

Additional observations from a re-analysis of the deposited data

Results flagged for a closer look

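CC2D1A, a repressor of transcription on chromosome 19, was higher in MyLa by 1.84 on its representative probe set and lower in HH by 1.5-fold or more (-0.61), the only gene named by rule past that threshold in opposite directions in the 2 lines; its other probe set gave 1.54 in MyLa and -0.41 in HH. Outside that rule, 2 more of the 79 genes higher on every probe set in MyLa were lower in HH, ZNF438 (-0.71) and CHPF2 (-0.72). The difference between the lines was not tested.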

How the results depend on the processing

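No paired analysis was possible because each condition has 1 array and the labels give no replicate numbers. At 2-fold the counts were 280 higher and 163 lower genes, and 16 and 1 by every measured probe set. Genes higher by every probe set numbered 40 of 2690 without _s_at and _x_at probe sets and 45 of 3810 at 7 or more on both arrays. The main count was 79 of 4832, so fewer genes were eligible under both settings. Genes lower by every probe set numbered 39 with loess and 38 with centring, each of 4832, and 39 of 3810 at 7 or more. The 39 left by loess were all among the 61. The median of all genes was -0.032 with loess, 0 by construction with centring and -0.042 as the mean of the probe sets. Other counts stayed within 1.5 times. Of 138 named genes, none changed direction under quantile, loess or no floor; under loess ACTN1 (-0.54), P4HA2 (-0.54) and POLR1B (-0.58) came within 1.5-fold and PRKCE (0.61) passed it. The share of chromosome 19 genes higher, tried under alternatives chosen after seeing the data, ran from 23.5% to 27.1%. Dim genes set the limit: from 5 to 7, 174 of 1067 genes were higher and 222 lower.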
